A study of Mus musculus with 6 samples.

Results

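The transforming growth factor beta (TGF-beta) superfamily was followed in mouse embryonic stem (ES) cells and in cells sorted on a Pax7 reporter after myogenic differentiation, through 44 genes chosen by name: 16 ligands, 8 receptors, 7 antagonists, 9 Smad and Smurf genes and 4 latent binding proteins. The list was chosen with earlier results of these data known. All 44 genes had a probe set of their own among the 22180 genes measured. Pax7-GFP cells were GFP-positive cells collected by flow cytometry after 3 weeks of myogenic differentiation of mouse ES reporter lines, with sorting gates set on each line's undifferentiated culture. ES cells were undifferentiated and pluripotent. Each group had 3 samples, called biological replicates in their titles and hybridised to 1 single-colour array each. The number of ES lines or clones behind the samples, how the cultures were kept apart and whether the ES cells were also sorted are not stated in the sources used here, so the p-values reflect only how far these 6 samples spread.

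Ligands of this superfamily are secreted dimers that bring together type I and type II receptor kinases on the cell surface. TGF-beta, activin, myostatin and Gdf11 signal mainly through Smad2 and Smad3, and bone morphogenetic proteins (BMPs) mainly through Smad1, Smad5 and Smad9. Smad4 is the partner of both branches, and Smad6 and Smad7 are inhibitory. In skeletal muscle, myostatin limits growth, TGF-beta restrains differentiation of myoblasts, and BMP signals and their antagonist noggin act on the timing of myogenesis in the embryo. Newly made TGF-beta is held inactive in the matrix by latent binding proteins.

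Most of the pathway genes that differed were higher in the sorted cells. Of the 44 genes, 17 rose, 3 fell and 24 were not called, where a call needed an adjusted p under 0.05 (limma, Benjamini-Hochberg over all genes) and at least a 2-fold difference. Across all 22180 genes 14.5% were called, 7.34% higher and 7.15% lower, so that 38.6% of the pathway genes were higher against 7.34% of all genes, and 6.8% were lower against 7.15%. The median log2 fold change, Pax7-GFP minus ES, was 0.72 over the 44 genes and 0.024 over all genes. Without a minimum fold, 31 of the 44 were higher and 5 lower, against 19.7% and 21.4% of all genes (41.1% in either direction). The 3 Pax7-GFP arrays lay wholly above the 3 ES arrays for 32 members and wholly below them for 5, against 26.2% and 25.6% of all genes. In a limma test against a 2-fold difference, 12 members were higher and 1 was lower, against 3.96% and 3.76% of all genes. The share of members called higher is thus above the background and the share called lower is near it.

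The labels were checked on marker genes read from the same fit as the pathway. All 4 markers of the skeletal muscle lineage (Pax7, Myf5, Myod1 and Myog) were higher in Pax7-GFP cells, with list means of 10.93 to 11.16 per array against 5.81 to 6.15 in ES cells, and all 5 pluripotency markers were lower, with list means of 5.52 to 5.65 against 9.73 to 9.88. Pax7 drives the sorting reporter, so its own level checks the sort. Fibroblast markers were higher for 3 of 5 genes, with list means of 7.83 to 8.41 in Pax7-GFP and 5.93 to 6.12 in ES arrays, and the other 2 passed the p threshold alone. Smooth muscle markers were higher for 2 of 4 and lower for 1 (8.92 to 9.09 against 8.65 to 8.86), and endothelial markers were higher for 1 of 5 and lower for 1 (5.58 to 5.70 against 5.94 to 5.97). Neural markers were lower for 3 of 5 (5.21 to 5.59 against 7.65 to 7.76) and haematopoietic ones for 2 of 4 (5.68 to 5.96 against 6.92 to 7.04). The part of other cell types in the values below was not tested. In such bulk samples, fewer cells of a type and less RNA per cell cannot be told apart.

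Promoter sequences of 5 members are shown as examples of genes that changed: by the difference over all 6 arrays, the largest riser with a RefSeq promoter among ligands, receptors, Smads and latent binding proteins, and the member with the largest fall, Bmp4. Some of these places are close and move with single arrays. Without Pax7-GFP replicate 3, Bmp4 fell by 1.33 and Smad7 by 1.44, and without replicate 2 Bmp4 fell by 1.49 and Smad7 by 1.55. Without ES replicate 1, Bmp4 fell by 1.73 and Inhba by 1.74. Without Pax7-GFP replicate 1, Ltbp1 rose by 2.43 and Ltbp3 by 2.46. Each is the 250 bases before the annotated start, 5′ to 3′ on the gene's strand, from RefSeq on GRCm38.p6. The windows are chr1:186705990-186706239 on the minus strand, chr3:141982265-141982514 on the minus strand, chr9:63757995-63758244 on the minus strand, chr17:75005279-75005528 on the plus strand and chr14:46390670-46390919 on the minus strand. Bmpr1b has 3 listed windows and Ltbp1 has 2, of which the most upstream is printed. Capitals mark matches, on either strand, to any of the 4 motifs described after them.
Tgfb2: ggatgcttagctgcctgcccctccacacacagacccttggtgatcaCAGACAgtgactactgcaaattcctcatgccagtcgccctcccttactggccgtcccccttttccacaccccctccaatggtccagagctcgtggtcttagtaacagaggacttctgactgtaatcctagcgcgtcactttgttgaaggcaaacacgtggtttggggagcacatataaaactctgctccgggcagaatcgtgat
Bmpr1b: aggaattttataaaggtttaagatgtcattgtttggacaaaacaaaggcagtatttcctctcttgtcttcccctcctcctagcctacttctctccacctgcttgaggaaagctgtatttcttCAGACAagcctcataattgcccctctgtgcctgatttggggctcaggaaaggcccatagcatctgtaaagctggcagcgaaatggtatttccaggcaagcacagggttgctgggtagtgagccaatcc
Smad3: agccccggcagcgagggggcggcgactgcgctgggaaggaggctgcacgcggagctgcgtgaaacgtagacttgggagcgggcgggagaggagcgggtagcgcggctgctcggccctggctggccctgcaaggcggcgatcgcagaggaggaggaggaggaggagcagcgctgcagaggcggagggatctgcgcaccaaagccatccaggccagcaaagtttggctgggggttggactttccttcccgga
Ltbp1: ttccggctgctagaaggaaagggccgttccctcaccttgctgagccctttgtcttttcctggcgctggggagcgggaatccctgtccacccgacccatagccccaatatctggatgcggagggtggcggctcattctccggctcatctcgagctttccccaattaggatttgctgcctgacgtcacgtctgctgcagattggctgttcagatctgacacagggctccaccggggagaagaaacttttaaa
Bmp4: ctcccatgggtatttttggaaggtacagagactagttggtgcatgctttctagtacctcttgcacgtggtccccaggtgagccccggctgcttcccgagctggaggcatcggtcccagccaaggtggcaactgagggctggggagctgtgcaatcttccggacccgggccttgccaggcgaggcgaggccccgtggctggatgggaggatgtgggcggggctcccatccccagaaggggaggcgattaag

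These motifs were searched as plain letters. GGCGCC is a GC-rich sequence of BMP-responsive Smad elements, GTCTAGAC is the palindromic Smad element, CAGACA stands for the CAGA box of TGF-beta-responsive promoters, and CAGCTG is an E-box that muscle basic helix-loop-helix factors bind. The Tgfb2 and Bmpr1b windows each held 1 CAGACA, and the Smad3, Ltbp1 and Bmp4 windows held none of the 4 motifs. RefSeq gave 40 windows for 32 of the 44 members. GGCGCC lay in 25% of member windows and in 9.59% of the 32851 windows of all genes, CAGACA in 22.5% and 17.1%, CAGCTG in 5.00% and 13.0%, and GTCTAGAC in 0 member windows and 0.167% of all. Among the members called higher, 5 of 22 windows held GGCGCC, and among those not called 5 of 16 did. Base composition was not matched between the sets, and the windows of all genes include non-coding genes. These matches describe letters in a short window and say nothing of binding.

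Tgfb2 and Tgfb3 had the largest rises among the ligands, while Tgfb1 rose less than Gdf11 and Bmp6. Tgfb2 had signals of 10.95, 10.83 and 10.92 (log2) on the 3 Pax7-GFP arrays, against 6.85, 7.12 and 7.16 on the ES arrays. The groups were far apart and the Pax7-GFP arrays lay close together, and Tgfb2 rose by 3.86 (SE 0.10, limma adjusted p = 5.32e-08), or 14.5-fold. Tgfb3, a ligand found in many mesenchymal tissues, had 10.46, 9.90 and 10.14 in Pax7-GFP cells, against 6.84, 7.50 and 7.64 in ES cells. Its spread was larger in both groups, and it rose by 2.84 (SE 0.22, limma adjusted p = 1.76e-05). Tgfb1, the most widely studied of the 3 ligands, had 8.24, 8.13 and 8.34 against 7.11, 7.31 and 7.15 in ES cells. The groups did not overlap, but the difference of 1.05 (SE 0.095, limma adjusted p = 4.33e-05) lay close to the 2-fold minimum. Without Pax7-GFP replicate 3 it was 0.997 and was no longer called.

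**Figure D1:**
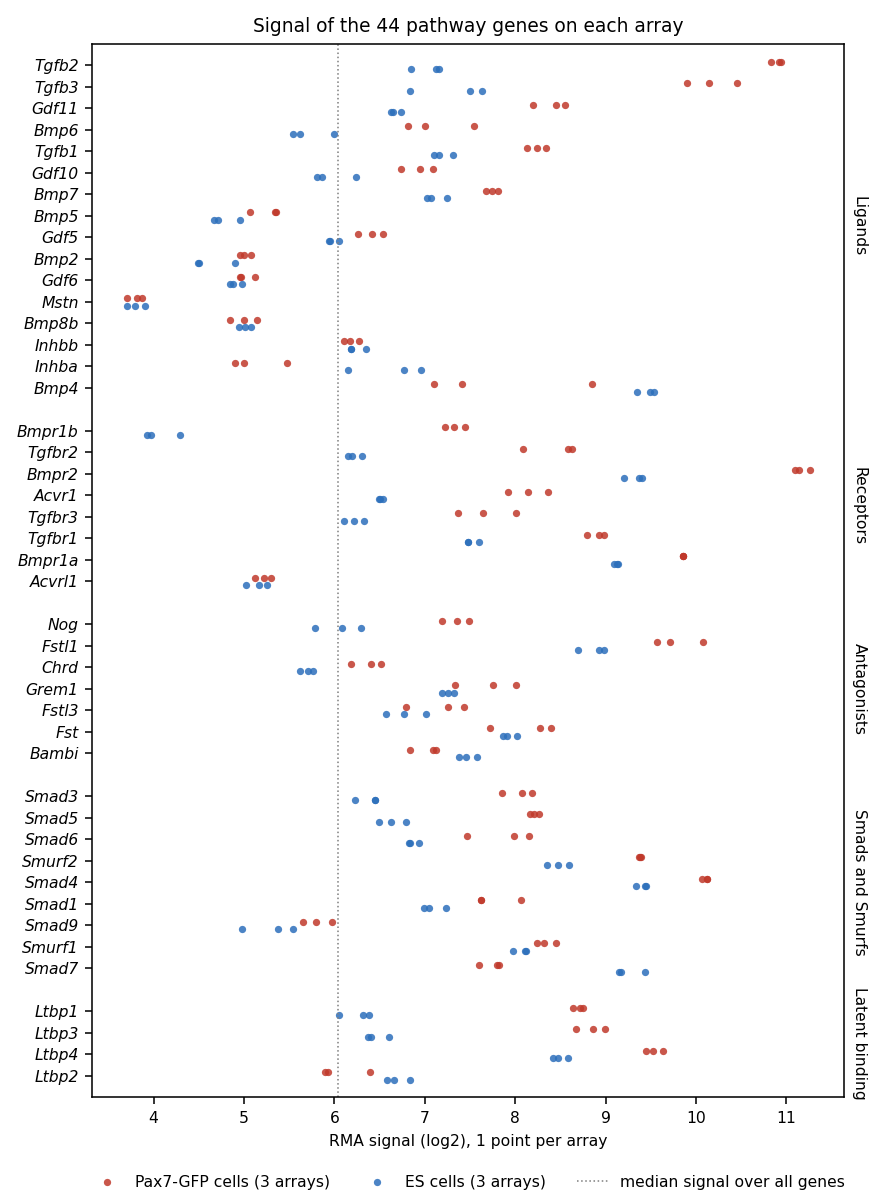
Log2 RMA signal of the 44 genes on each array, 1 point per array, with Pax7-GFP arrays in red drawn above ES arrays in blue in each row, and genes grouped by role and ordered by fold change. Tgfb2 shows the widest gap among ligands, at 10.83 to 10.95 in Pax7-GFP against 6.85 to 7.16 in ES arrays, while the Mstn points of both groups lie together at the low end.

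The genes of myostatin and its close relative Gdf11 did not move together. Mstn, which encodes the muscle growth inhibitor myostatin, had 3.81, 3.87 and 3.70 in Pax7-GFP cells, against 3.91, 3.70 and 3.79 in ES cells. Its 2 groups overlapped fully near the low end of the scale, and the difference was -0.01 with a 95% interval from -0.21 to 0.20 (limma adjusted p = 0.968). The values carry no detection calls, and RMA compresses differences near background, so the interval bounds only the signals. Gdf11, a ligand of axial patterning that uses the same receptors, had 8.45, 8.19 and 8.55 in Pax7-GFP cells, against 6.64, 6.73 and 6.63 in ES cells. All of its Pax7-GFP arrays were high, and it rose by 1.73 (SE 0.11, limma adjusted p = 4.82e-06), or 3.31-fold.

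Activin genes were lower or close to their ES signals. Inhba, which encodes the activin A subunit, had 5.47, 4.90 and 5.00 in Pax7-GFP cells, against 6.14, 6.95 and 6.78 in ES cells. The groups stood apart despite an ES spread of 0.81 between the lowest and highest array, and Inhba fell by 1.501 (SE 0.23, limma adjusted p = 0.000805). Inhbb, the activin B subunit, had 6.11, 6.27 and 6.18 against 6.18, 6.18 and 6.34, and its groups overlapped, with a difference of -0.05 (95% interval -0.25 to 0.16).

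The BMP ligands split. Bmp6 had 6.81, 7.01 and 7.54 in Pax7-GFP cells, against 5.54, 5.61 and 5.999 in ES cells, and rose by 1.402 (SE 0.20, limma adjusted p = 0.000554). Bmp4, a ligand that sustains mouse ES cells together with LIF, had 8.85, 7.41 and 7.10 in Pax7-GFP cells, against 9.35, 9.49 and 9.54 in ES cells. Every Pax7-GFP array was below every ES array, with replicate 1 much nearer to the ES signals than the other two. Bmp4 fell by 1.67 (SE 0.39, limma adjusted p = 0.00829), and by 2.20 without Pax7-GFP replicate 1. With all signals below 4.765 set to that value, a floor at the 25th percentile, its adjusted p was 0.0718 in limma, and the call was lost. No Bmp4 signal lay under that floor, and its difference stayed at -1.67. Only its SE moved, to 0.51, because limma shares variance information across genes and the floor altered other genes. Replicate 1 was also the highest Pax7-GFP array in the mean of the fibroblast markers, at 8.41 against 8.06 and 7.83 in the other two, and in the endothelial cadherin Cdh5, at 7.49 against 6.54 and 6.39. Of the other endothelial markers, Tie1 was slightly highest in replicate 1, at 5.454 against 5.322 and 5.375. Pecam1 (5.71 against 6.19 and 6.01), Kdr (5.05 against 5.62 and 5.36) and Tek (4.48 against 4.85 and 4.76) were lowest there. The endothelial list mean of replicate 1 was 5.64, between the 5.70 and 5.58 of the other Pax7-GFP arrays. The part of such cells in the Bmp4 values was not tested.

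The remaining ligands were not called. Bmp7, which acts in kidney and eye development, stood at a difference of 0.63 (95% interval 0.43 to 0.84), and Bmp5 and Bmp2 at 0.47 and 0.38, all past the p threshold alone. Gdf5, a ligand of joint formation, stood at 0.42 by its brighter probe set and at 0.30 by the other one. Gdf10, also called Bmp3b, had 6.74, 7.09 and 6.95 in Pax7-GFP cells, against 6.23, 5.87 and 5.80 in ES cells. Its difference of 0.96 (SE 0.14, limma adjusted p = 0.000678) fell short of 2-fold, and it reached 1.05 without Pax7-GFP replicate 1 and 1.09 without ES replicate 1, where it was called. Gdf6 and Bmp8b overlapped between groups, at 0.11 and -0.01. Bmp8b has a near copy, Bmp8a, so its probe set is uncertain to the single gene.

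Among the receptor genes 6 of 8 rose, or 75.0% against 7.34% of all genes, and 0 fell, against 7.15%. Their median log2 fold change was 1.54. Bmpr1b, a type I BMP receptor, changed most, with 7.22, 7.32 and 7.44 in Pax7-GFP cells, against 3.92, 4.29 and 3.98 in ES cells. It rose by 3.27 as fitted (SE 0.12, limma adjusted p = 2.39e-07). Its ES signals all lay under the floor of 4.765, so the size of the rise is uncertain, and with the floor it was 2.56. The floor made the 3 ES values equal, so the SE of that fit, 0.061, does not measure their spread. Bmpr1a, the other type I BMP receptor, was already high in ES cells at 9.12, 9.09 and 9.13, and had 9.86, 9.85 and 9.86 in Pax7-GFP cells. The arrays of each group were almost identical for Bmpr1a, and its difference of 0.74 (SE 0.073, limma adjusted p = 7.33e-05) stayed under 2-fold. Bmpr2, the type II BMP receptor, had 11.10, 11.26 and 11.14 in Pax7-GFP cells, against 9.21, 9.37 and 9.41 in ES cells. All of its arrays were well above the array median, and Bmpr2 rose by 1.84 (SE 0.091, limma adjusted p = 1.36e-06).

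The TGF-beta receptor genes Tgfbr1, Tgfbr2 and Tgfbr3 rose as well, while the co-receptor gene Eng, from the wider list of pathway genes, fell. Tgfbr2, the type II receptor that binds the ligand first, had 8.09, 8.58 and 8.62 in Pax7-GFP cells, against 6.30, 6.15 and 6.20 in ES cells. Replicate 1 was the lowest of the Pax7-GFP arrays but lay clear of the ES arrays, and Tgfbr2 rose by 2.21 (SE 0.14, limma adjusted p = 6.49e-06). Its type I partner Tgfbr1 had 8.92, 8.99 and 8.80 against 7.48, 7.60 and 7.48 in ES cells, a rise of 1.39 (SE 0.087, limma adjusted p = 5.35e-06). Tgfbr3, the co-receptor betaglycan that presents TGF-beta2, had 8.005, 7.64 and 7.37 against 6.11, 6.22 and 6.33, and rose by 1.45 (SE 0.16, limma adjusted p = 0.000118). Replicate 1 was the highest Pax7-GFP array for Tgfbr3 and the lowest for Tgfbr2. Acvr1, a type I receptor for BMPs known as ALK2, had 7.92, 8.36 and 8.14 against 6.50, 6.53 and 6.49 in ES cells, and rose by 1.63 (SE 0.12, limma adjusted p = 1.12e-05). Acvrl1, the endothelial type I receptor ALK1, overlapped between groups at 5.12 to 5.30 against 5.03 to 5.25, with a difference of 0.07 (95% interval -0.15 to 0.28).

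**Figure D2:**
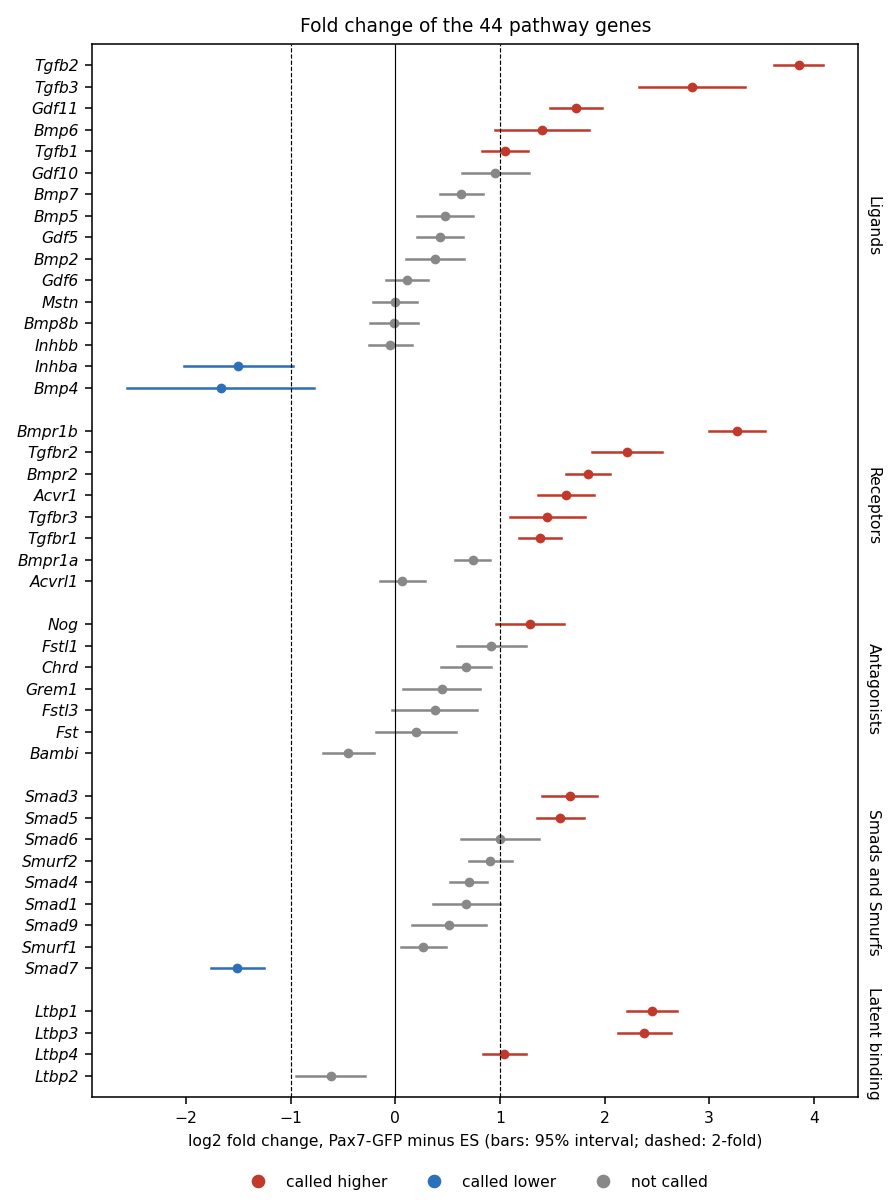
Log2 fold change, Pax7-GFP minus ES, of the 44 genes with its 95% interval from limma, grouped by role. Red genes were called higher, blue genes lower and grey genes were not called, and the dashed lines mark a 2-fold difference. Of the receptors 6 lie to the right of the upper line, with Bmpr1b at 3.27 as fitted and at 2.56 with the signal floor, and the genes to the left of the lower line are Bmp4, Inhba and Smad7.

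Among the antagonists 1 of 7 rose, or 14.3% against 7.34% of all genes, and 0 fell, against 7.15%. Their median log2 fold change was 0.44. Nog, which encodes the BMP-binding protein noggin, had 7.36, 7.49 and 7.19 in Pax7-GFP cells, against 6.29, 5.78 and 6.09 in ES cells, and rose by 1.29 (SE 0.14, limma adjusted p = 0.000132). Chrd, which encodes chordin, another secreted BMP antagonist, stood at 0.67, and Fstl1, a follistatin-like glycoprotein, at 0.92, both past the p threshold alone. Fstl1 reached 1.02 without Pax7-GFP replicate 3, where it was called. Fst encodes follistatin, which binds activin and myostatin and promotes muscle growth. It had 7.72, 8.27 and 8.40 in Pax7-GFP cells, against 7.91, 7.87 and 8.02 in ES cells. Replicate 1 was below all ES arrays and the other two above them, so the groups overlapped, and the difference was 0.20 with a 95% interval from -0.19 to 0.58 (limma adjusted p = 0.412). Grem1 and Fstl3 stood at 0.44 and 0.38 with limma adjusted p-values of 0.0576 and 0.134. Bambi, a pseudoreceptor that blocks TGF-beta and BMP receptors, was the 1 antagonist below 0, at -0.45 (95% interval -0.69 to -0.21).

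The Smad genes moved in both directions. Smad3 had 8.08, 7.85 and 8.18 in Pax7-GFP cells, against 6.23, 6.45 and 6.45 in ES cells, and rose by 1.67 (SE 0.11, limma adjusted p = 8.36e-06). Smad5, of the BMP branch, had 8.21, 8.17 and 8.27 against 6.50, 6.63 and 6.79, and rose by 1.58 (SE 0.096, limma adjusted p = 4.47e-06). Both branches therefore held 1 receptor-regulated Smad that rose. The others differed by less than 2-fold: Smad1 at 0.68, Smad9 at 0.51 and Smad2, which was read from the wider list of pathway genes, at 0.67. Smad4 stood at 0.70 (95% interval 0.52 to 0.88), with 10.06 to 10.12 in Pax7-GFP and 9.33 to 9.44 in ES arrays.

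The inhibitory Smads differed in direction. Smad7, which blocks the receptors and recruits ubiquitin ligases to them, had 7.80, 7.82 and 7.60 in Pax7-GFP cells, against 9.15, 9.17 and 9.43 in ES cells. The groups were clearly apart, and Smad7 fell by 1.51 (SE 0.11, limma adjusted p = 1.22e-05); it was also the 1 lower member that passed the test against a 2-fold difference. Smad6, which acts mainly on the BMP branch, had 7.99, 8.15 and 7.47 against 6.83, 6.84 and 6.94. All Pax7-GFP arrays were higher for Smad6, but its difference was 0.9998 (SE 0.16, limma adjusted p = 0.00129), just under the 2-fold minimum of 1 on the log2 scale. It was 1.20 without Pax7-GFP replicate 3 and 1.035 without ES replicate 3, and was called in both. The ubiquitin ligases Smurf2 and Smurf1, which act with the inhibitory Smads, stood at 0.91 and 0.27, not called.

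Latent binding proteins hold TGF-beta in the matrix, and 3 of the 4 rose, or 75.0% against 7.34% of all genes. Ltbp1 had 8.76, 8.72 and 8.63 in Pax7-GFP cells, against 6.05, 6.31 and 6.38 in ES cells, and rose by 2.46 (SE 0.10, limma adjusted p = 5.76e-07), or 5.49-fold. Ltbp3 had 8.67, 8.86 and 9.00 against 6.37, 6.41 and 6.61, and rose by 2.38 (SE 0.11, limma adjusted p = 9.43e-07). Neither gene overlapped between groups, and both moved by more than 5-fold. Ltbp4, a latent binding protein whose variants modify muscular dystrophy in mice, had 9.64, 9.44 and 9.52 against 8.59, 8.47 and 8.42. It rose by 1.04 (SE 0.090, limma adjusted p = 3.30e-05), and stood at 0.989 without Pax7-GFP replicate 1, where the call was lost. Ltbp2, which does not bind latent TGF-beta and is known from elastic fibres, went the other way, with 5.90, 6.39 and 5.93 against 6.58, 6.66 and 6.83 and a difference of -0.62 (95% interval -0.95 to -0.29), under 2-fold.

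Spread within the groups differed between members. The median member had an SD of 0.15 among Pax7-GFP arrays and 0.11 among ES arrays, against 0.14 and 0.084 for all genes. Bmp4 had the largest SD in Pax7-GFP cells, 0.93 against 0.097 in ES cells, followed by Bmp6 at 0.38 against 0.25. Inhba and Tgfb3 had the largest SDs in ES cells, with 0.31 in Pax7-GFP against 0.42 in ES arrays for Inhba and 0.28 against 0.43 for Tgfb3. For both, ES replicate 1 was the lowest array.

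**Figure D3:**
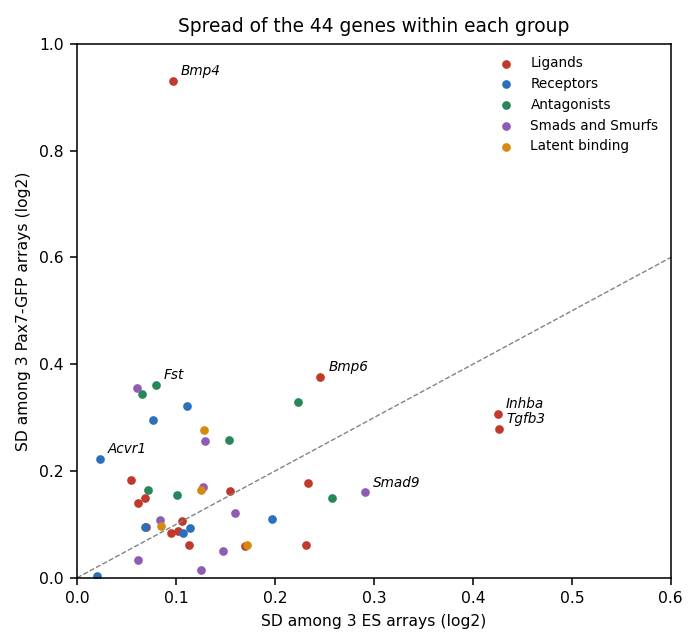
SD of each of the 44 genes among the 3 Pax7-GFP arrays (vertical) against the SD among the 3 ES arrays (horizontal), in log2 units, coloured by role, with equality dashed. Bmp4 stands alone at 0.93 against 0.097, and the other genes lie at or below 0.38 in Pax7-GFP cells.

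Other genes of the pathway, taken from 7 lists by role, were read from the same fit. Of 83 measured genes of 91, 25 rose, 9 fell and 49 were not called, or 30.1% and 10.8% against 7.34% and 7.15% of all genes, and the median log2 fold change was 0.094. Among the other ligands 1 of 15 was higher (6.7%) and 4 were lower (26.7%), against 7.34% and 7.15% of all genes. Gdf3 and Nodal, ligands that pluripotent cells make, stood at -4.87 and -2.87 (limma adjusted p = 2.80e-07 and 4.85e-07), and Inha, the inhibin alpha subunit, rose by 1.36. Among other receptors and co-receptors 3 of 10 rose and 2 fell. Eng, which encodes the TGF-beta co-receptor endoglin, known from endothelial cells, had 6.42, 6.72 and 6.43 in Pax7-GFP cells, against 9.12, 9.40 and 9.43 in ES cells, and fell by 2.79 (SE 0.12, limma adjusted p = 6.61e-07). It was named after its values were seen. Tdgf1, the co-receptor of Nodal, stood at -7.13, and Rgmb, a BMP co-receptor, rose by 2.80 to 9.22, 8.73 and 9.26 in Pax7-GFP cells, against 6.23, 6.34 and 6.24 in ES cells.

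Other antagonists were higher in 4 of 12, or 33.3% against 7.34% of all genes, and lower in 0, against 7.15%. Sostdc1, which binds BMPs, had 9.03, 8.27 and 7.72 in Pax7-GFP cells, against 6.004, 5.63 and 5.50 in ES cells, and rose by 2.63 (SE 0.30, limma adjusted p = 0.000158), with replicate 1 again the highest. Nbl1, of the DAN family of BMP antagonists, rose by 1.76. Genes of latency and processing were higher in 4 of 13, or 30.8% against the same 7.34%, and lower in 0. Fbn2, a microfibril protein to which latent binding proteins attach, had 9.48, 8.83 and 8.92 against 5.18, 5.13 and 5.09, and rose by 3.95 (SE 0.16, limma adjusted p = 5.11e-07), and Bmp1, a metalloproteinase that cleaves chordin and procollagens, rose by 1.37. Among other transducers 3 of 15 rose and 1 fell, led by Wwp2, a ubiquitin ligase of Smads, at -2.05, and Zfyve16, a Smad anchor on endosomes, at 2.01.

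Genes known to respond to these ligands were called higher more often than lower. The BMP-responsive list had 5 of 9 higher (55.6%) and 1 lower (11.1%), against 7.34% and 7.15% of all genes. Its median was 1.402. Id2, an inhibitor of basic helix-loop-helix factors, had 11.40, 11.61 and 11.21 in Pax7-GFP cells, against 9.06, 9.14 and 9.04 in ES cells, and rose by 2.33 (SE 0.11, limma adjusted p = 1.14e-06). Hey1, which Notch also drives, rose by 4.64, and Tbx20, a cardiac factor, was the 1 gene called lower at -2.17. Without a minimum fold, 5 genes of this list were higher and 3 lower, against 19.7% and 21.4% of all genes. Beside Tbx20 the lower genes were Msx2 at -0.66 and Id4 at -0.48. The TGF-beta-responsive list likewise had 5 of 9 higher and 1 lower, with a median of 1.09. Its matricellular genes Ccn1 and Ccn2 moved apart. Ccn1 had 12.20, 12.06 and 12.06 in Pax7-GFP cells, against 9.12, 9.43 and 9.45 in ES cells, and rose by 2.78 (SE 0.11, limma adjusted p = 4.17e-07). Ccn2, by its brighter probe set, had 8.05, 8.70 and 7.82 against 9.46, 9.73 and 9.81 in ES cells, and fell by 1.48 (SE 0.21, limma adjusted p = 0.000640). Col1a2, a chain of type I collagen, rose by 2.03. Without a minimum fold, 6 genes of the TGF-beta-responsive list were higher and 2 lower, against the same shares of all genes. The lower genes were Ccn2 and Fn1, the latter at -0.56. Msx2, Id4 and Fn1 were named after their values were seen. These lists respond to other signals too, and Acta2, Tagln and Col1a1 also stood among the smooth muscle or fibroblast markers above.

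**Figure D4:**
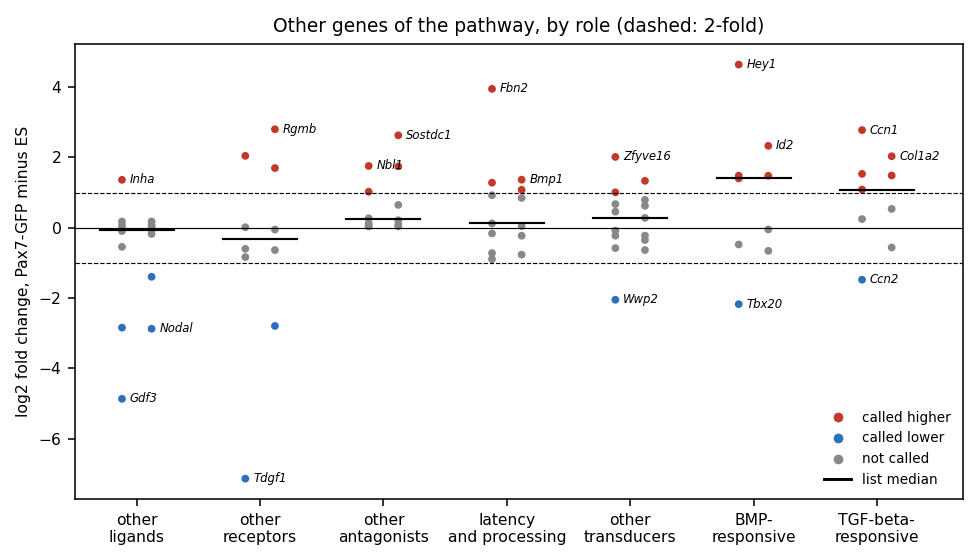
Log2 fold change, Pax7-GFP minus ES, of 83 further pathway genes in 7 lists by role, 1 point per gene, with the list median as a bar and 2-fold as dashed lines. The other ligands hold 4 genes called lower, Gdf3 at -4.87 the lowest of them, and the lists of responsive genes have medians of 1.402 and 1.09.

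Several members sit beside a relative in the genome, as RefSeq's gene order gives it, and the neighbours did not always share a change. Smad3 and Smad6 are adjacent protein-coding genes, at 1.67 and 0.9998. Acvr1 is adjacent to Acvr1c, which encodes the type I receptor ALK7, and they stood at 1.63 and -0.05. Acvrl1 and Acvr1b are adjacent, at 0.07 and -0.83, neither called. Gdf10 is next to Gdf2, another ligand, at 0.96 and 0.07, neither called. The neighbours were named after their values were seen.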

How the data were processed

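Gene expression was measured on single-colour arrays in 3 Pax7-GFP and 3 ES samples. The authors deposited log2 RMA signals, 1 per probe set and array, made in R 2.12.1 per the submitters' processing notes. RMA corrects background, normalizes between arrays and summarises probes. The options of RMA, the probe set definition and a genome build are not stated in those notes or labels. Labelling used a double amplification, per the labels' protocols. Array medians were 5.61 to 5.69. Of 41345 rows, 23521 carried 1 gene symbol in GEO's platform annotation, and a gene was read from its brightest such probe set. The 2 probe sets that pair a member with another gene were not used.

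Groups and replicate numbers came from the sample titles. Pax7-GFP and ES arrays were compared by limma's moderated two-sided test (limma 3.58.1, R 4.3.3) over 22180 genes. No dim gene was left out. On data simulated for this comparison, the fit called 99 of 100 genes changed by 1.5 (log2), 100 of 100 changed by 3 and 0 of 21980 unchanged. The simulation drew independent normal values with 1 SD per gene in both groups, and unchanged genes also had to reach 2-fold. The real groups spread unequally (median SD 0.142 in Pax7-GFP and 0.084 in ES arrays), so it does not give the error rates of these data. The small number of arrays sets the precision. The members, lists and rule for named genes (every member and, of each other list, the 2 largest called changes and the largest opposite one) were chosen with earlier results of these data known.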

Additional observations from a re-analysis of the deposited data

How the results depend on the processing

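Under quantile normalization, median centring, a floor on signals, removal of dim genes, the mean of probe sets, another variance prior, array weights or the replicate block, 16 or 17 members were higher and 2 or 3 lower. Without single arrays 17 to 18 were higher and 3 lower. Thresholds moved counts by construction. Without a minimum fold, 31 members were higher and 5 lower, and 32 other pathway genes were higher and 21 lower. Of all genes, 4378 and 4748 were then higher and lower. In the test against 2-fold, 12 members were higher and 1 lower, and 15 other pathway genes were higher and 8 lower. Of all genes, 879 and 834 were higher and lower in it. In that test Tgfb1, Ltbp4, Bmp6, Tgfbr3, Nog, Bmp4 and Inhba were not called.

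Signs turned for 3 members whose difference was near 0. Without single arrays Bmp8b ranged between -0.086 and 0.063, Mstn between -0.056 and 0.046 and Inhbb between -0.092 and 0.006. Bmp8b stood at 0.063 without Pax7-GFP replicate 1 and 0.023 without ES replicate 2, Mstn at 0.041 without Pax7-GFP replicate 3 and 0.046 without ES replicate 1, and Inhbb at 0.006 without ES replicate 3. The dim-gene filter left 34 of the 44 members. Same-numbered arrays of the 2 groups did not deviate together (correlations of -0.108, -0.220 and 0.007 over genes). With the replicate block 17 members were higher and 3 lower, and no member's call changed. Array values carry no detection calls, so low signals limit what can be said of Mstn, Bmp2, Bmp5, Bmp8b, Gdf6 and Acvrl1. The same holds for the ES level of Bmpr1b and the Pax7-GFP level of Inhba. The Bmpr1b difference was 3.27 as fitted and 2.56 with the floor.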
